A study of Mus musculus with 2 samples.

Results

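Apoe, the apolipoprotein that carries cholesterol out of cells, was described here together with 5 genes that load, take up or regulate such particles: Abca1, Abcg1, Lpl, Lrp1 and Mylip. These 6 genes, of 31053 gene rows measured, were chosen by a fixed list of names that was drawn up with earlier results of these data in view, mainly the difference in Apoe between the libraries, so that difference is given as a description and no test of it was made. The study profiled single cells of the optic nerve of wild-type 129S1/SvlmJ mice (both sexes pooled), with no transgene in either group, and asked how the cells of the oligodendrocyte lineage differ at the injury site. One library, called injured, came from the crush site 2 weeks after optic nerve crush, and the other, called uninjured, came from intact nerves. The labels give P56, which by the study's methods is the age at crush, and nerves of both groups were taken 2 weeks past that age. Both libraries carry the same treatment label, 2 weeks after crush, so the uninjured one was assigned from its title, on which all ratios between the libraries rest. Nerves of several animals went into each library, so each condition is 1 sample, no animal can be told from another, and library and injury cannot be told apart. Barcodes, the droplets taken as cells, carried the type names given by the authors: oligodendrocyte precursor cells (OPC), newly formed oligodendrocytes (NFO) and oligodendrocytes.

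Cholesterol cannot be broken down by most cells, and glia that take up or make more of it than they need hand it on. Oxysterols made from the excess activate the nuclear receptors Nr1h2 (LXR beta) and Nr1h3 (LXR alpha), whose textbook targets include Apoe, the transporter Abca1, which loads cholesterol and phospholipid onto lipid-poor apolipoproteins, its partner in efflux Abcg1, the lipase Lpl, and Mylip (also called Idol), a ubiquitin ligase that acts on lipoprotein uptake. Lrp1 is a large endocytic receptor that takes up Apoe-bearing particles. In the central nervous system Apoe is best known as a product of astrocytes and microglia, and macrophages that clear myelin also make it.

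In the mouse genome build GRCm38 (mm10), annotated by GENCODE vM21, all 6 are protein-coding genes. Apoe (ENSMUSG00000002985) lies at chr7:19696109-19699188 and Abca1 (ENSMUSG00000015243) at chr4:53030787-53159895, both on the minus strand. Abcg1 (ENSMUSG00000024030) lies at chr17:31057675-31117988 and overlaps the small gene Gm25447 on the same strand, and Lpl (ENSMUSG00000015568) lies at chr8:68880491-68907448, both on the plus strand. Lrp1 (ENSMUSG00000040249) lies at chr10:127538161-127621148 on the minus strand with Gm16217 on the opposite strand, and Mylip (ENSMUSG00000038175) lies at chr13:45389742-45412022 on the plus strand. The libraries read the 3′ ends of transcripts, so levels of single genes were compared across cells and not between genes. Summed lists of cell type markers were, however, set beside each other and beside Apoe within the same barcodes.

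The promoters of Apoe and Abca1, the members past 2-fold up in oligodendrocytes with at least 50 UMIs, are shown to make their sequence available beside their values. They hold the 250 bases before the annotated start (RefSeq, GRCm38.p6, minus strand, 5′ to 3′). Capitals mark the best match, within 3 mismatches on either strand, to the direct repeat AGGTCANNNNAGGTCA that LXR receptors are known to bind.
Apoe promoter, chr7:19699189-19699438: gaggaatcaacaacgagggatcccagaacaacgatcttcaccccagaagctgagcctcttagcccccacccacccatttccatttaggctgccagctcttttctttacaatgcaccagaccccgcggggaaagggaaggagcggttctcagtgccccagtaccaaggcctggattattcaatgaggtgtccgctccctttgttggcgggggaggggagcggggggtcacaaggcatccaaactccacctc
Abca1 promoter, chr4:53159896-53160145: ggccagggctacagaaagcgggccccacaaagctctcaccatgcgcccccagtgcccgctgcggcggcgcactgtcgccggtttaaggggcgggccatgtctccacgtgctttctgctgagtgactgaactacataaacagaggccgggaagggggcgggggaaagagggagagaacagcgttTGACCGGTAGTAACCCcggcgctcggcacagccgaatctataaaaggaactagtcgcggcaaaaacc
The Abca1 window held a match on the opposite strand, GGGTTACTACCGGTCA, that differed from the repeat at 3 of its 12 defined letters and lay 67 to 52 bases before the start. Such a match was present in 18.5% of the 32851 promoters of this length, and the best match in the Apoe window shown differed at 5 letters and those before its 2 other annotated starts at 4. Of the 6 genes, 4 had a promoter in the table used, and the windows of Lrp1 and Mylip held no match within 3 mismatches.

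The uninjured library held 959 lineage barcodes with 4414834 unique molecular identifiers (UMIs, each 1 captured transcript), and the injured library held 410 barcodes with 2771797. Median depth was 2782 UMIs per barcode (291 to 34653) in the uninjured and 1304.5 (502 to 58568) in the injured library. Uninjured barcodes fell into 58 OPC, 44 NFO and 857 oligodendrocytes, and injured barcodes into 17, 100 and 293. The OPC and oligodendrocyte names went with their markers, and the NFO name less clearly. The 6 OPC markers made up 13302 and 11676 of 1000000 UMIs (CPM) in uninjured and injured OPC against 29.2 and 27.8 in oligodendrocytes, where the 10 oligodendrocyte markers stood at 77999 and 67859. The 6 NFO markers stood at 4940 and 7495 CPM in uninjured and injured NFO, beside 4366 and 2061 for the OPC markers. In the 28 of 44 uninjured NFO poor in Malat1 (under 0.5% of UMIs) the OPC markers were the higher, at 6851 against 2174. Injured barcodes of every type also carried RNA of macrophages and microglia: 87.7% of injured oligodendrocytes, 88% of injured NFO and 88.2% of injured OPC had a UMI of the 18 genes of that marker list, against 10.4% of uninjured oligodendrocytes. In the injured oligodendrocytes this list amounted to 406 CPM (range over barcodes 0 to 21 UMIs, with all 18 genes detected), led by Ctss and Spp1 with 135 UMIs each, and in the uninjured to 32.1 (0 to 29 UMIs, 17 of 18 genes detected). Levels are given in UMIs per 1000000 UMIs of the group (CPM) with exact Poisson 95% intervals, shares of barcodes with exact binomial intervals and ratios with exact conditional intervals. All of them cover counting error only, not the spread between animals.

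Apoe was higher in the injured library in all 3 cell types, and the order of the cell types turned over between the libraries. In the uninjured library Apoe was highest in OPC at 741 CPM (618 to 882), intermediate in NFO at 297 (198 to 430) and lowest in oligodendrocytes at 86.8 (78.0 to 96.2). In the injured library it was highest in oligodendrocytes at 4327 CPM (4243 to 4413), followed by NFO at 1702 (1569 to 1844) and OPC at 1454 (1244 to 1689). No interval overlapped its neighbour in the uninjured order, whereas injured NFO and OPC, the lower pair, had overlapping intervals. The uninjured NFO level, however, pooled unlike barcodes. Apoe was at 790 CPM (506 to 1176, 24 UMIs) in the 28 Malat1-poor NFO and at 62.7 (17.1 to 161, 4 UMIs) in the other 16. Uninjured oligodendrocytes rich in Malat1 were at 84.1 CPM (75.4 to 93.5), so the middle place of NFO rested on the Malat1-poor barcodes.

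Single barcodes showed the difference between the libraries in each type. The median of Apoe UMIs and the share with Apoe were highest in injured OPC, which were also the deepest. Median depth was 4120 UMIs in injured OPC, 1268 in injured oligodendrocytes and 1258.5 in injured NFO. As CPM of each barcode, the injured medians held the turned order, at 4196 in oligodendrocytes, 2771 in NFO and 1178 in OPC. Uninjured oligodendrocytes held 0 to 50 Apoe UMIs with a median of 0, and 18.4% (15.9 to 21.2) of them held any, while injured oligodendrocytes held 0 to 445 with a median of 6, and 96.2% (93.4 to 98.1) held at least 1. Uninjured NFO held 0 to 5 Apoe UMIs (median 0) and injured NFO 0 to 70 (median 4), and uninjured OPC held 0 to 14 (median 1) and injured OPC 1 to 47 (median 7), with Apoe in 100% of them. With every barcode thinned to 500 UMIs, which takes away the difference in depth, 77.1% of 293 injured and 4.53% of 838 uninjured oligodendrocytes still held Apoe. The thinned shares were 76% and 16.7% in injured and uninjured NFO, and 41.2% and 21.4% in injured and uninjured OPC. The barcode ranges of the libraries overlapped in all 3 types.

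As ratios of injured over uninjured, Apoe differed 49.9-fold (44.9 to 55.6) in oligodendrocytes, 5.72-fold (3.92 to 8.69) in NFO and 1.96-fold (1.55 to 2.49) in OPC. Within the uninjured library Apoe was 8.54-fold (6.92 to 10.5) higher in OPC than in oligodendrocytes, and within the injured library it was 0.336-fold (0.287 to 0.391) the oligodendrocyte level. The NFO ratio moved with the choice of barcodes: it was 3.08-fold in NFO barcodes with under 0.1% of UMIs from the macrophage and microglia list and 15.0-fold in those with at least 0.5% from Malat1, a nuclear RNA, where only 4 uninjured UMIs stood behind it. The 0.1% filter also chose by depth, since 1 list UMI exceeds it in any barcode under 1000 UMIs. It kept the 8 deep injured NFO, where Apoe was at 553 CPM. In OPC of 1000 to under 8000 UMIs the Apoe ratio was 2.82-fold.

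**Figure D1:**
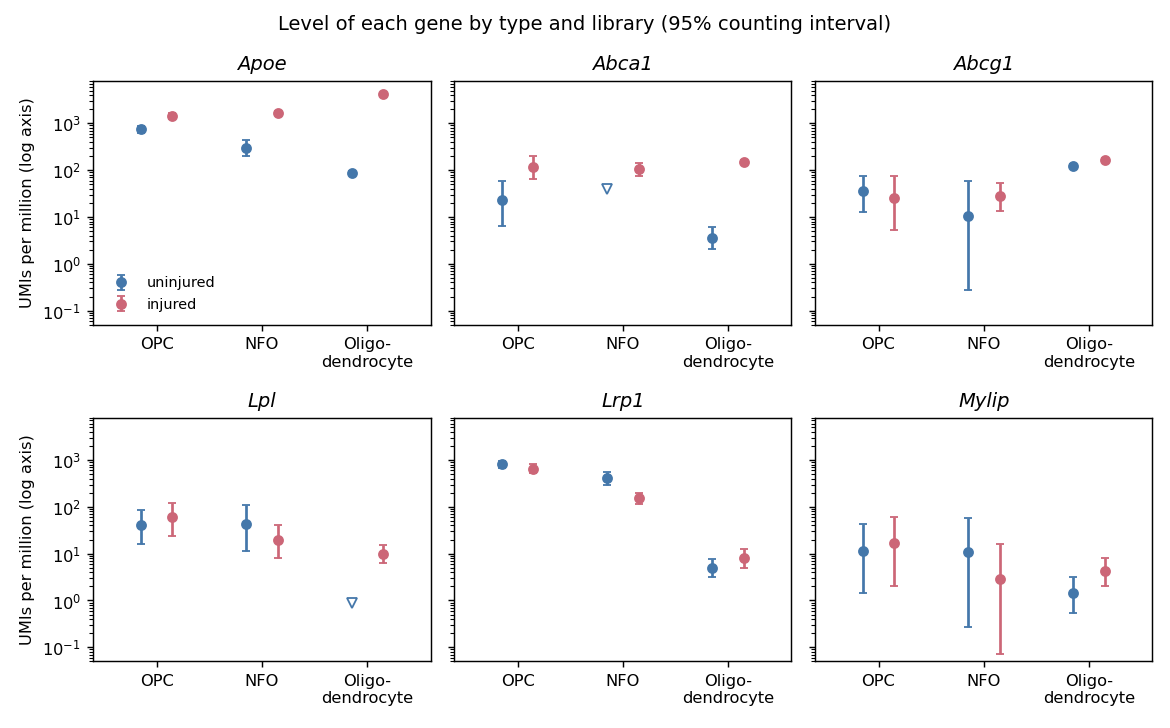
CPM (log axis) of the 6 genes in OPC, NFO and oligodendrocytes of the uninjured (blue) and injured (red) library; bars are 95% Poisson intervals and open triangles mark the upper limit where no UMI was found. Apoe falls from OPC to oligodendrocytes in the uninjured library and rises to 4327 in the injured one, Abca1 in oligodendrocytes goes from 3.62 to 152, and Lrp1 keeps its steep fall from OPC to oligodendrocytes in both.

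Injured oligodendrocyte barcodes split into a shallow and a deep group, so Apoe was followed across depth. Of the injured oligodendrocytes, 133 had under 1000 UMIs, 76 had 1000 to under 8000 and 84 had at least 8000, and of the uninjured 157, 497 and 203. Within 10% of the lower boundary lay 20 injured and 36 uninjured barcodes, and within 10% of the upper one 1 and 51. The deep classes were unlike in depth, with medians of 22473 UMIs in the injured and 11054 in the uninjured library. Counts and shares per deep barcode therefore also carry this difference in depth. Apoe differed between the libraries at each depth: 8615 CPM against 182 under 1000 UMIs (47.3-fold, 30.4 to 77.8), 3159 against 98.6 at 1000 to under 8000 (32.0-fold), and 4254 against 74.7 from 8000 UMIs on (57.0-fold, 49.2 to 66.4).

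The number of Apoe UMIs per barcode grew with depth in the injured oligodendrocytes, and the RNA of macrophages and microglia did not. Apoe gave 5.92 UMIs per barcode under 1000 UMIs, 8.72 at 1000 to under 8000 and 101 (99.2 to 104) from 8000 on. The marker list of macrophages and microglia gave 3.24 (2.94 to 3.56), 2.88 (2.51 to 3.29) and 3.39 (3.01 to 3.81). There were thus 1.83 (1.62 to 2.06), 3.03 (2.59 to 3.54) and 29.9 (26.5 to 33.7) Apoe UMIs for each UMI of the list. In the shallow barcodes the numbers were close to those of injured NFO of the same depth, which held 4.78 Apoe and 3.03 list UMIs per barcode (1.58 to 1, 1.23 to 2.02). The 8 deep injured NFO held 13.4 Apoe and 2.75 list UMIs per barcode (4.86 to 1, 3.05 to 8.08). Of their 107 Apoe UMIs, however, 70 lay in 1 barcode, and the median was 4.5. How much of the Apoe in shallow barcodes was free RNA of macrophages or other cells was not tested.

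Injured oligodendrocytes without any UMI of the macrophage and microglia list were few and held Apoe at a lower level than those with one. They numbered 16 under 1000 UMIs, of which 14 had Apoe (4813 CPM), 11 at 1000 to under 8000, of which 10 had Apoe (2549 CPM), and 9 from 8000 on, of which 8 had Apoe (2696 CPM). Injured barcodes with a UMI of the list held Apoe at 9103, 3260 and 4405 CPM in the same depth classes. The corresponding 167 deep uninjured oligodendrocytes had Apoe at 69.5 CPM. Astrocyte markers, the other textbook source, were at a lower level in the injured oligodendrocytes as a whole: the 8 genes of that list summed to 156 CPM in uninjured and 86.0 in injured oligodendrocytes (0 to 68 and 0 to 26 UMIs per barcode, all 8 detected in both), with Slc1a3 (85 UMIs) and Gfap (38 UMIs) leading in the injured. Under 1000 UMIs, however, the astrocyte list was at 255 CPM in uninjured and 515 in injured barcodes (28 and 47 UMIs), and its part in the Apoe of those barcodes was not tested.

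**Figure D2:**
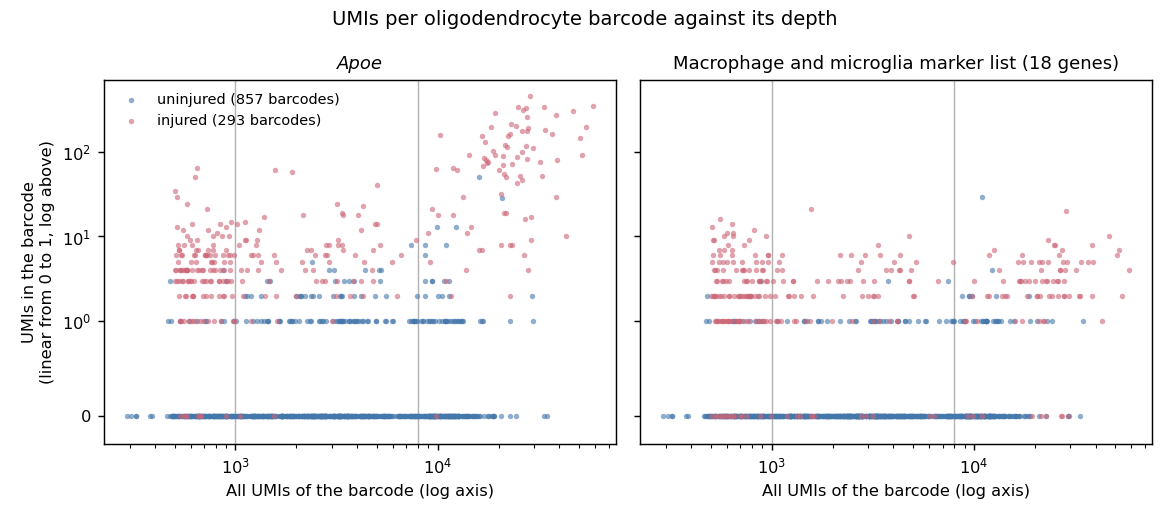
UMIs of Apoe (left) and of the 18-gene macrophage and microglia list (right) in each oligodendrocyte barcode against all UMIs of the barcode (log axes, vertical axis linear from 0 to 1), blue for 857 uninjured and red for 293 injured barcodes; grey lines stand at 1000 and 8000 UMIs. Deep injured barcodes reach 445 Apoe UMIs and at most 20 UMIs of the list.

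Deep injured oligodendrocytes varied widely among themselves. Apoe in these 84 barcodes ran from 0 to 15577 CPM with a median of 3408 and quartiles of 893 and 6264, and 62 of them reached 1000 CPM, against 4 of the 203 deep uninjured ones, whose highest value was 3131 and whose median was 0. The 10 barcodes with most Apoe UMIs held 37.6% of the Apoe UMIs of the deep injured group and 74.2% of the far fewer UMIs of the deep uninjured group. Thinned to 500 UMIs, 71.4% of deep injured and 2.46% of deep uninjured barcodes held Apoe. Across the 84 barcodes Spearman's rho with Apoe CPM was 0.227 for Abca1 and 0.137 for Abcg1, weak values in sparse counts that share the barcode's depth.

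Abca1 followed Apoe between the libraries. In oligodendrocytes it stood at 3.62 CPM (15 UMIs in 857 barcodes) in the uninjured and at 152 CPM (349 UMIs in 293 barcodes) in the injured library, a ratio of 41.9 (25.1 to 75.7). Barcodes with at least 1 Abca1 UMI made up 1.63% of the oligodendrocytes in the uninjured and 40.6% in the injured library, and 2.96% and 85.7% of the deep ones, with 0 to 1 UMI per deep uninjured barcode and 0 to 11 (median 3) per deep injured one. These shares and counts were not adjusted for the greater depth of the deep injured barcodes. The ratio was 53.8 (24.4 to 148) in the deep barcodes and 63.9 at 1000 to under 8000 UMIs, and its intervals hold the Apoe ratio of all and of deep oligodendrocytes.

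In the other types Abca1 was rarer. In NFO it was at 0 of 94130 UMIs in the uninjured library and at 37 UMIs (105 CPM) in the injured one. That was 3.30-fold a floor of 3 UMIs, and 1.97-fold to 3.05-fold under other settings. In OPC Abca1 went from 4 to 14 UMIs (23.3 to 119 CPM, 5.10-fold, 1.60 to 21.3). Uninjured Abca1 was thus 6.46-fold (1.56 to 20.3) higher in OPC than in oligodendrocytes, and in the injured library the OPC level was 0.785-fold (0.425 to 1.34) that of oligodendrocytes, within counting error. Abca1 per barcode rose with depth in injured oligodendrocytes from 0.128 to 0.882 and 3.15 UMIs. Leaving out the 10 barcodes with most Abca1 in each class, an alternative chosen after the data were seen, turned the level of shallow over deep barcodes from 1.41-fold to 0.642-fold, with 6 UMIs left in the shallow class.

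Abcg1, the other efflux transporter, differed little between the libraries and was highest in oligodendrocytes as pooled CPM. It stood at 126 CPM (115 to 137) in uninjured and 168 CPM (151 to 185) in injured oligodendrocytes, 1.34-fold (1.17 to 1.53), and in deep barcodes at 109 and 174, 1.60-fold (1.36 to 1.88). The deep injured barcodes held 0 to 14 Abcg1 UMIs (median 3) and the deep uninjured ones 0 to 9 (median 1), so that the ranges overlapped almost wholly. Median depth of these barcodes was 22473 UMIs in the injured and 11054 in the uninjured library. In OPC only 6 and 3 UMIs were found and in NFO 1 and 10 in the uninjured and injured library.

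Depth changed the sign of the small Abcg1 difference. In injured barcodes under 1000 UMIs Abcg1 was at 32.8 CPM (3 UMIs), 0.189-fold (0.0388 to 0.556) the deep level, whereas in uninjured ones it was at 146 CPM (16 UMIs), 1.34-fold (0.756 to 2.22) the deep level. Between libraries Abcg1 was therefore 0.225-fold (0.0420 to 0.787) in shallow barcodes, and the mean over barcodes of each barcode's CPM, in which shallow barcodes count fully, gave 0.727-fold. Among shallow barcodes 37% of 522 genes with at least 50 UMIs were at least 2-fold lower in the injured library and 32.2% higher. Injured oligodendrocytes poor in Malat1 (under 0.5% of UMIs, 133 barcodes, median depth 774) held 23.4 CPM of Abcg1, 0.133-fold (0.0273 to 0.391) the level of the other 160, while Apoe in them was 1.54-fold (1.43 to 1.66) and Abca1 0.762-fold (0.422 to 1.28). With barcodes under 2000 UMIs alone, Apoe in the Malat1-poor ones was 0.745-fold the others.

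**Figure D3:**
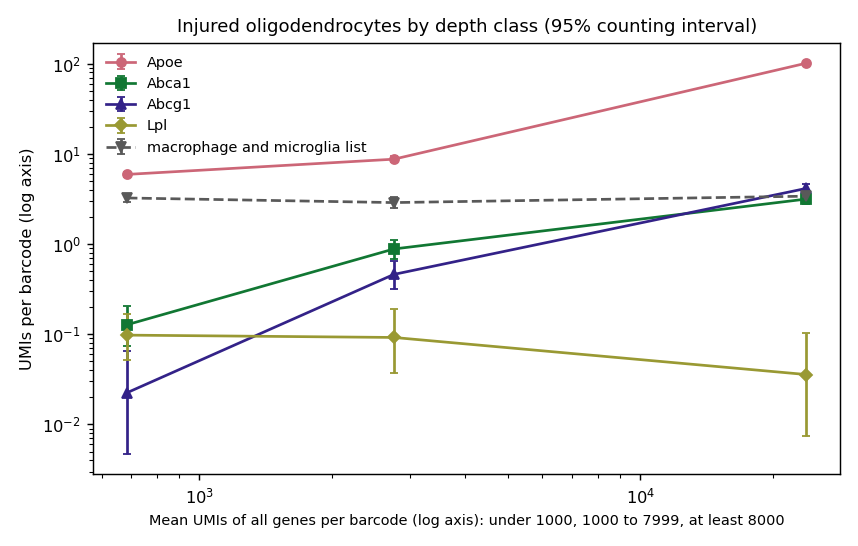
UMIs per barcode (log axis) in injured oligodendrocytes against the mean depth of the class (log axis) for barcodes under 1000, of 1000 to under 8000 and of at least 8000 UMIs; bars are 95% Poisson intervals. Apoe goes from 5.92 to 101 UMIs per barcode, Abca1 and Abcg1 climb with depth, and the dashed macrophage and microglia list stays between 2.88 and 3.39, as Lpl stays below 0.1.

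Lpl, the lipase that frees fatty acids from lipoproteins, was at 0 of 4149375 UMIs in the 857 uninjured oligodendrocytes, with an upper 95% limit of 0.889 CPM. The floor of 3 UMIs, against which the ratio was set, stood at 0.723 CPM there. That is under the upper limit, so the ratio is not a lower 95% limit. Injured oligodendrocytes held 23 Lpl UMIs in 22 of 293 barcodes (9.99 CPM, 13.8-fold the floor). These lay mostly in the shallow barcodes, 13 UMIs under 1000 (142 CPM), 7 at 1000 to under 8000 (33.4 CPM) and 3 from 8000 on (1.5 CPM), and per barcode they numbered 0.0977, 0.0921 and 0.0357. Lpl was thus 94.9-fold (26.1 to 519) higher in CPM in shallow than in deep injured barcodes, from 13 and 3 UMIs. Lpl was in 9.02%, 9.21% and 3.57% of barcodes across depth, while the macrophage and microglia list gave 3.24, 2.88 and 3.39 UMIs per barcode, and the part of free RNA in Lpl was not tested.

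In the earlier stages Lpl was present without injury. OPC held 7 UMIs in each library (40.9 and 59.5 CPM) and NFO 4 and 7 (42.5 and 19.9 CPM), with ratios of 1.46 (0.436 to 4.87) and 0.468 (0.119 to 2.18) that counting error covers.

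Lrp1 marked the precursor end of the lineage. In the uninjured library it was at 811 CPM (682 to 958) in OPC, 414 (295 to 566) in NFO and 5.06 (3.13 to 7.74) in oligodendrocytes, with UMIs in 81.0%, 40.9% and 1.75% of barcodes. In the injured library it was at 655 (517 to 818), 153 (115 to 200) and 8.25 (4.97 to 12.9), with UMIs in 82.4%, 25% and 6.14%. OPC over oligodendrocytes came to 160-fold (101 to 267) in the uninjured and 79.3-fold (47.5 to 139) in the injured library, the reverse of the order of Apoe in the latter.

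Between the libraries Lrp1 was lower in injured NFO, 0.370-fold (0.241 to 0.574), from 54 and 39 UMIs in 100 and 44 barcodes, whose per-barcode ranges of 0 to 15 and 0 to 5 overlapped. It differed by less than counting error in OPC (0.807-fold, 0.603 to 1.07) and in oligodendrocytes (1.63-fold, 0.829 to 3.19, from 19 and 21 UMIs). In oligodendrocytes the Lrp1 ratio depended on the barcodes: it was 4.58-fold at 1000 to under 8000 UMIs (6 and 10 UMIs), 0.554-fold (0.151 to 1.73) in deep ones, 10.9-fold as a mean of barcode CPM and 17.2-fold thinned to 500 UMIs (12 and 2 UMIs). Within NFO of 1000 to under 8000 UMIs the ratio was 0.386-fold (0.215 to 0.687). The OPC markers were also lower in injured than in uninjured NFO, at 2061 and 4366 CPM. Whether the Lrp1 ratio in NFO followed this difference in make-up was not tested.

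Mylip was close to absent at this depth. It gave 6 UMIs in 857 uninjured and 10 in 293 injured oligodendrocytes (1.45 and 4.34 CPM, 3.0-fold, 0.989 to 10.1), 1 in each set of NFO and 2 in each set of OPC, so pooled differences lay within counting error. In oligodendrocytes of 1000 to under 8000 UMIs it was 15.3-fold, from 4 and 2 UMIs.

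A gene was counted where its UMIs of both libraries summed to at least 50 and its CPM differed at least 2-fold. In oligodendrocytes 3 members could be counted, and Apoe and Abca1 were past 2-fold up and 0 down, where 5.98% of 8591 genes were up and 4.06% down. In deep oligodendrocytes the same pair was up and 0 down, against 7.78% of 7631 genes up and 3.13% down. In NFO 2 members could be counted, with Apoe up where 13.3% of 1695 genes were and Lrp1 down where 4.01% were. In OPC 2 could be counted and neither was past 2-fold, with 10.3% of 993 genes up and 6.45% down. These contrasts chose the members, and nothing is read from the counts.

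Between cell types of the uninjured library, Apoe and Lrp1 were at least 2-fold higher and Abcg1 lower in OPC than in oligodendrocytes, where 18.6% of 7806 genes were higher and 19.9% lower, and the same held in NFO, where 17.7% of 7651 genes were higher and 24% lower. In injured oligodendrocytes under 1000 UMIs against those from 8000 on, Apoe was past 2-fold up at 2.03-fold (3.74% of 5635 genes were) and Abcg1 down (48.3% were). Restricting both depth classes to barcodes with under 0.1% of UMIs from the macrophage and microglia list, chosen after the data were seen, left Apoe at 1.13-fold. In the shallow class it kept only the 16 barcodes without any UMI of the list, with 50 Apoe UMIs. In the Malat1-poor barcodes 0 members were up and Abcg1 was down, where 3.38% of 5969 genes were up and 47.5% down.

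Of 41 further genes of cholesterol transport, listed by role with earlier results of the data known, 26 could be counted in oligodendrocytes. Of these, 6 were at least 2-fold higher in the injured library (Abca5, Apod, Lcat, Soat1, Nceh1 and Plin2) and 4 at least 2-fold lower, among them Scd1, Cyp27a1 and Clu, and the median log2 ratio of the 26 was -0.15 beside 0.05 over all genes counted, of which 5.98% were higher and 4.06% lower. In deep oligodendrocytes 23 could be counted, of which 6 were higher (Abca5, Apod, Scarb2, Soat1, Nceh1 and Srebf1) and the same 4 lower, with a median of 0.01 beside 0.14 over all genes counted, of which 7.78% were higher and 3.13% lower.

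Among the lipid carriers, Apod, a small lipid-binding apolipoprotein, went from 2674 to 7143 CPM (2.67-fold, 2.61 to 2.74). Lcat, which esterifies cholesterol on lipoproteins, went from 2.89 to 17.8 CPM (6.16-fold, 3.18 to 12.9, from 12 and 41 UMIs), and Clu (clusterin) from 26.8 to 13.0 (0.487-fold, 0.314 to 0.735). The lipid carriers therefore did not move one way.

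Among the receptors, Vldlr, which binds Apoe-bearing particles, was at 242 and 218 CPM (0.900-fold, 0.807 to 1.0) in all oligodendrocytes, but its ratio was 1.15-fold (1.01 to 1.31) in deep barcodes and 0.0924-fold (0.0183 to 0.291, from 39 and 3 UMIs) in shallow ones. Of the 522 genes counted in shallow barcodes, 37% were at least 2-fold lower in the injured library. Scarb2, a lysosomal membrane protein, was 1.77-fold (1.62 to 1.94) in all oligodendrocytes and 2.21-fold (1.98 to 2.48) in deep ones.

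All 7 genes of lysosomal exit and storage could be counted, and Soat1, Nceh1 and Plin2 were past 2-fold up (5.98% of all genes were) and 0 past 2-fold down (4.06% were). Soat1, which makes cholesteryl esters, went from 16.1 to 44.3 CPM (2.74-fold, 2.00 to 3.79), Nceh1, which splits them, from 63.9 to 129 (2.01-fold, 1.70 to 2.39), and Plin2, a lipid droplet coat protein, from 4.82 to 13.0 (2.70-fold, 1.49 to 5.02). In deep barcodes Soat1 and Nceh1 stayed past 2-fold, at 3.21-fold (2.13 to 4.95) and 2.14-fold (1.74 to 2.63), and Plin2 was at 1.78-fold (0.834 to 3.92), within counting error. The lysosomal exit proteins Npc1 and Npc2 were at 0.900-fold (0.808 to 1.0) and 1.11-fold (1.02 to 1.20) in all oligodendrocytes, and 1.15-fold (1.01 to 1.32) and 1.01-fold (0.918 to 1.1) in deep ones. Abca5, a lipid transporter of late endosomes and lysosomes, was 2.07-fold (1.76 to 2.43), and 2.95-fold (2.38 to 3.67) in deep barcodes.

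The receptors that oxysterols bind were not higher. Nr1h2 was at 56.4 and 48.2 CPM (0.855-fold, 0.676 to 1.08), and Nr1h3 had no UMI in the oligodendrocytes or NFO of either library. Other known LXR targets went in different directions: Srebf1, the master regulator of fatty acid synthesis, was 1.72-fold (1.39 to 2.13), and 2.06-fold (1.57 to 2.73) in deep barcodes, while Scd1, a fatty acid desaturase, was 0.449-fold (0.378 to 0.532). Cyp27a1, which makes an oxysterol, was 0.368-fold (0.281 to 0.475).

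In NFO 4 genes of the list could be counted and in OPC 3, and 0 were past 2-fold in either direction. Apoc1, a small apolipoprotein gene that lies 3448 bases from Apoe on the same strand and was picked out after its values were seen, had 0 UMIs in uninjured oligodendrocytes and NFO. In the injured library it had 48 UMIs in oligodendrocytes (28.8-fold the floor of 3 UMIs) and 30 in NFO. Of the 48, 27 lay in barcodes under 1000 UMIs (296 CPM) and 9 in those from 8000 on (4.5 CPM), so that Apoc1, like Lpl, lay mostly in shallow barcodes.

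**Figure D4:**
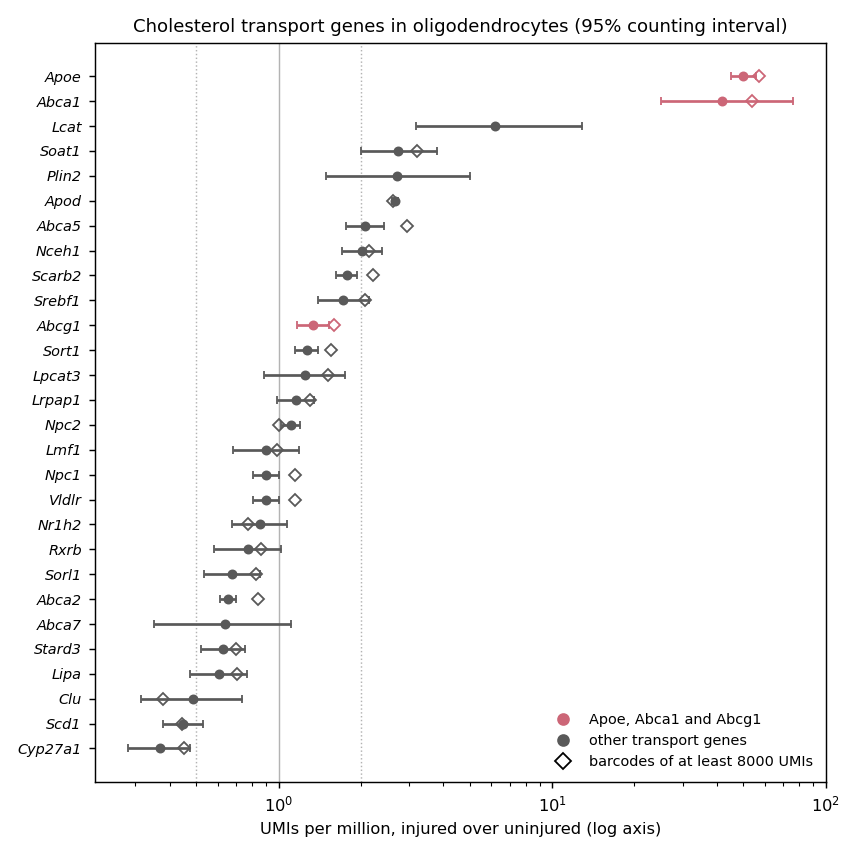
Ratio of CPM, injured over uninjured oligodendrocytes (log axis), of the members and the listed genes reported here with at least 50 UMIs in both libraries together; filled points with 95% intervals are all barcodes, open diamonds barcodes of at least 8000 UMIs, red Apoe, Abca1 and Abcg1, dotted lines 2-fold. Apoe and Abca1 stand far to the right at 49.9 and 41.9, and the other genes drawn lie between 0.368 and 6.16.

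The genes whose levels were most like those of Apoe were taken over 10 classes (OPC and NFO of each library, and oligodendrocytes of each library and depth class) by Pearson's r of log2(CPM + 10) among 5321 genes with at least 200 UMIs. The classes share libraries and depth, and r is only a description. They were Fxyd7 (r = 0.945), Cebpb (0.943), Abca1 (0.919), Sparc (0.889), Hexa (0.868), Ralgps2 (0.860), Klk8 (0.846), Spp1 (0.838), S100a10 (0.829) and Golga3 (0.828), and 6 of the 10 were also among the first 10 by Spearman's rho. Their depth patterns differed: in injured oligodendrocytes under 1000 and from 8000 UMIs on, Fxyd7, a regulator of the sodium pump, was at 142 and 151 CPM and Sparc, a matricellular protein, at 1401 and 887. Spp1, which is on the macrophage and microglia list, was at 712 and 24.0 and the secreted protease Klk8 at 197 and 533.

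Fxyd7, Klk8 and Sparc were all lower in the deep uninjured oligodendrocytes, at 5.74, 0.410 and 167 CPM, and Spp1 was at 0 there. The genes most like Abca1 were Apoe (0.919), Cerk, a ceramide kinase (0.883), and Chd4 (0.874). Those most like Abcg1 were Ankrd13a (0.975), Enpp4 (0.971) and Prox1 (0.968), and those most like Lrp1 were Serpine2 (0.988), Sparcl1 (0.983) and Ccnd1 (0.973), all of which were at 846 CPM or more in uninjured OPC and below 10 in uninjured oligodendrocytes. These names depended on the measure. By Spearman's rho only Chd4 stayed among the first 3 for Abca1 and only Enpp4 for Abcg1. The first 3 for Lrp1 were then Dclk1, Fabp7 and C1ql1. Lpl and Mylip had under 200 UMIs and were not compared in this way.

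Markers of other cells of the nerve were sparse in the injured oligodendrocytes. Of the 7 fibroblast and pericyte markers, Col1a2 (37 UMIs) and Dcn (11 UMIs) led, and the list stood at 27.4 CPM against 20.2 in the uninjured (0 to 4 and 0 to 18 UMIs per barcode). The 4 endothelial markers gave 13 UMIs, led by Flt1 (9) and Pecam1 (3), with Cldn5 at 0. The Schwann cell list was carried by Cdh19 (114 of 115 UMIs).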

How the data were processed

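Single-cell RNA of the optic nerve was measured in 1 uninjured and 1 injured library (10x Chromium, 3′ ends). The authors processed the reads with Cell Ranger 1.3 and bcl2fastq 2.17.1.14 on the mm10 build, and Seurat 4.0.3 is named in the submitters' processing notes. The values the authors deposited are the natural log of 1 plus 10000 times a gene's share of its barcode's UMIs, for the barcodes they kept, with type and condition rows. Whole UMI counts were recovered from them in 100% of barcodes (tolerance 0.001). The libraries shared 0 barcode sequences, and the combined table repeated the same values and was not used. No doublet caller was run and no cell was left out.

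UMIs were summed per library, type and depth class and divided by the class total (CPM). With 1 library per condition no test between conditions exists, and intervals (exact Poisson, binomial and conditional, 95%) cover counting error only. A gene was counted with at least 50 UMIs over both groups and a 2-fold difference. Ratios against 0 were set against a floor of 3 UMIs and are not lower 95% limits. The intervals of ratios were tested on simulated data, where they held the true value for 96.2% (OPC), 95.7% (NFO) and 95.9% (oligodendrocytes) of 993, 1695 and 8591 genes. The simulated sums came from the Poisson model that the intervals assume. The simulation thus checked the calculation only and says nothing of the spread between barcodes or animals. The members and gene lists were chosen with earlier results of these data known. Genes named were the 6 members, the listed transport genes past 2-fold and their oxysterol receptors, the 10 genes most like Apoe and the 3 most like each other member with 200 UMIs, and the leading markers of other cell types. Further genes described with them were picked from the same list after their values were seen. Some genes of the lists are not reported here. Of the gene names, 30438 matched GENCODE vM21. Alternatives covered depth, Malat1, macrophage RNA, thinning, thresholds and scaling. Python 3.11.15, numpy 2.4.6, scipy 1.17.1, pandas 2.3.3 and matplotlib 3.10.9 were used.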

Additional observations from a re-analysis of the deposited data

How the results depend on the processing

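Of 241 values under other settings, 169 stayed within counting error of the reported value or within 1.5 times a reported count, 71 moved further and 1, of a ratio past 2-fold, changed direction. Among the 6 genes between libraries 117 of 146 stayed and 29 moved, and smaller ratios did change direction, for Abcg1 and Lrp1 in oligodendrocytes and in OPC. Settings marked "later" were chosen after seeing the data. Apoe in OPC (1.96-fold) was 2.82-fold at 1000 to under 8000 UMIs, 3.09-fold from 8000 on (later), 3.48-fold as a mean of barcode CPM and 2.71-fold thinned to 500 UMIs. Apoe in NFO (5.72-fold) was 15.0-fold in Malat1-rich barcodes, 3.08-fold with under 0.1% macrophage and microglia RNA, 56.0-fold under 1000 UMIs (later, 1 uninjured UMI), 9.64-fold as a mean and 10.8-fold thinned. Apoe in oligodendrocytes (49.9-fold) was 32.0-fold at 1000 to under 8000 UMIs, 57.0-fold from 8000 on (later), 61.4-fold thinned and 55.8-fold without the barcode with most Apoe, and Abca1 (41.9-fold) was 20.4-fold under 1000 UMIs (later). Abcg1 in oligodendrocytes (1.34-fold) was 1.11-fold at 1000 to under 8000 UMIs, 1.60-fold from 8000 on and 0.225-fold under 1000 (both later), 0.727-fold as a mean and 0.729-fold thinned, and its mean deposited value differed by -0.0956 (natural log scale). Lrp1 in oligodendrocytes (1.63-fold) was 4.58-fold at 1000 to under 8000 UMIs, 0.790-fold in Malat1-rich barcodes, 0.554-fold from 8000 on (later), 10.9-fold as a mean and 17.2-fold thinned, and Mylip (3.0-fold) was 15.3-fold at 1000 to under 8000 UMIs, from 4 and 2 UMIs. With a minimum of 20 UMIs, 1 UMI in each library, a 1.5-fold or a 3-fold limit, genes higher in injured oligodendrocytes (514) numbered 781, 1578, 1340 and 197, genes lower (349) 576, 981, 1035 and 107, genes higher in NFO (226) 636, 1075, 472 and 83, and genes lower in NFO (68) 277, 1910, 184 and 20, or 114 with the median ratio set to 1. Of the 6 genes, the 1 higher in NFO became 2 at 20 UMIs and 2 at 1 UMI, and the 1 lower became 3 at 1 UMI and 0 at 3-fold. Apoe in shallow over deep injured oligodendrocytes (2.03-fold) was 2.34-fold with limits of 800 and 5000 UMIs, 2.18-fold as a mean and 1.13-fold with under 0.1% macrophage and microglia RNA (later), and Abca1 (1.41-fold) was 0.642-fold without the 10 leading barcodes (later). In Malat1-poor over other barcodes, taken under 2000 UMIs alone, Apoe (1.54-fold) was 0.745-fold and Lpl (18.5-fold) 0.758-fold, from 11 and 5 UMIs. Of the 10 genes most like Apoe, 6 stayed by Spearman's rho. Except where the setting itself shows it, the cause was not tested. No paired analysis was possible because each condition has 1 library, and for the same reason no replicate could be left out.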
